A study of Mus musculus with 33 samples.

Results

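The genes described here encode the proteins of the cytosolic ribosome, measured by RNA sequencing in the frontal cortex of young mice. Members were chosen by symbol, among rows of the count tables whose name begins with Rpl or Rps and a digit, plus Rplp0, Rplp1, Rplp2 and Rpsa, without the S6 kinases and listed pseudogenes. The 84 described here, of the 23366 genes listed in each table, include 80 that had counts scaled to a common library total (CPM) summing to at least 5 over the libraries of both tables. These 80 members comprised 48 genes of the large (60S) subunit and 32 of the small (40S) subunit, as far as the symbols show it. By symbol the set also took in Rps19bp1, which encodes a protein that binds a ribosomal protein, and Rpl7l1, a relative of Rpl7.

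Ribosomal proteins wrap the ribosomal RNAs into the small subunit, which decodes messenger RNA, and the large subunit, which forms peptide bonds. Their messengers are short and abundant in nearly all cells, begin with a terminal oligopyrimidine tract and are held back or released for translation together through mTORC1 signalling. Mammalian genomes carry many processed pseudogenes of them, intronless copies of the messenger, so that short reads from a ribosomal protein messenger often match more than a single place.

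The mice were C57BL/6 offspring, about 1 month old, of dams that breathed filtered air, aerosol of an e-cigarette with nicotine (13 to 16 mg/mL) or aerosol of the nicotine-free e-cigarette during gestation and, together with the pups, during lactation. No transgene or engineered allele is named for any group, and each library came from a different litter according to the study's methods. Females comprised 6 air, 5 nicotine and 5 no nicotine libraries, and males 6 air, 6 nicotine and 5 no nicotine libraries. The sexes were sequenced in separate runs and deposited as separate tables, so that sex and run cannot be told apart.

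Libraries held 19150562 to 27513174 counts in females and 17845672 to 24787955 in males. Xist, which is transcribed from the inactive X chromosome, had 2674 to 3777 counts in the 16 female libraries, where the sum of Uty, Kdm5d, Ddx3y and Eif2s3y, all on the Y chromosome, was 0 to 3. In the male table, the library labelled nicotine replicate 21 had 4632 Xist counts and 1 Y-linked count, while the others had 1 to 5 and 2140 to 3247. This library went against its label, and the results for males with nicotine are also given without it. Pairs of libraries of the same group differed by more than sampling noise in each of 75 pairs (chi-square per degree of freedom 4.57 to 31.8), so all were kept as separate samples.

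Ribosomal protein messengers took a small part of these libraries. All members together held 0.111% to 0.137% of the counts in females and 0.109% to 0.131% in males. Of the 80 members, 57 averaged fewer than 100 counts per library in both tables, and 15 averaged 300 or more. Only 7 passed a mean of 1000 in both tables, namely Rpl8, Rps3, Rpl4, Rpl22, Rps15, Rps15a and Rps9.

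Among these the most counts fell to Rpl8, whose product lies beside the peptidyl transferase centre of the large subunit, and Rps3, at the small-subunit channel where messenger RNA enters. Rpl8 averaged 6653 counts in females and 5715 in males, and Rps3 4380 and 3817. Together both genes held 36.5% to 38.6% of all member counts in the female libraries and 36.3% to 38.5% in the male libraries. At the other end stood Rps28 (8.31 and 7.53 counts per library), Rpl24 (9.94 and 10.3) and Rpl11 (10.2 in males). Rpl11 forms a complex with Rpl5 and the 5S ribosomal RNA. These 3 members lay just inside the limit on low counts, with summed CPM from 5.79 for Rps28 in females upwards.

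The 4 genes left out by the limit were Rpl10l with 0 counts, Rpl26 with a summed CPM of 0.080 in females and 0.047 in males, Rpl39l (1.97 and 0.938) and Rpl3l (3.34 and 3.01). Rpl10l, Rpl39l and Rpl3l are relatives of Rpl10, Rpl39 and Rpl3 known from testis or muscle. Rpl26 is an integral protein of the large subunit.

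To describe how far the members can be told from their genomic copies, every 50-base window of 1 spliced transcript per gene was looked up in the mouse genome (mm9), allowing up to 2 mismatches outside the gene. Window length, build and mismatches follow the study, but its reads were mapped to the mm9 transcriptome, so that copies outside that transcriptome were no targets of the mapping; which copies it holds is not given in the sources used here. Of 79 members with an annotated transcript, 63 had more than 50% of their windows elsewhere, and 1 (Rps27) had no window of its own. A place elsewhere that held at least 25% of a transcript's windows was found for 73 members, 25 of them with 10 or more such places. The 6 members with no such place were Rpl8, Rps3, Rps15a, Rps20, Rps19bp1 and Rpl18. A long transcript makes this share harder to reach, and those of Rps15a, Rps20 and Rpl18 have 3721, 3706 and 2987 bases. Rpl7a had 72 such places and Rps6 16. Windows from coding exons of members that the results turn on, and of Rpl26, which was left out, show the range; capitals mark bases at which a gene and its nearest copy differ.
Rpl8, chr15:76735330-76735379 (+), not found elsewhere: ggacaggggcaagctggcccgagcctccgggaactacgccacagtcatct
Rps3, chr7:106628524-106628573 (-), found at 1 other site: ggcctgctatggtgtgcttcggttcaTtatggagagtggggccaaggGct
Rps3 copy, chr16:23050546-23050595 (+): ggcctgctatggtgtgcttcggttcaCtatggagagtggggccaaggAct
Rpl13a, chr7:52382090-52382139 (-), found at 3 other sites: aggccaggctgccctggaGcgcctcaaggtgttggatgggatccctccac
Rpl13a copy, chrX:33753800-33753849 (-): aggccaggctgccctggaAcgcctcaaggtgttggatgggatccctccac
Rps9, chr7:3657383-3657432 (+), with an exact copy at chr7:148364051-148364100 (-): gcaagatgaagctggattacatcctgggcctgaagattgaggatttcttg
Rpl28, chr7:4745666-4745715 (+), with 3 exact copies, among them chr1:129935351-129935400 (+): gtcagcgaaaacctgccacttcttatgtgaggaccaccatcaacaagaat
Rpl26, chr11:68716707-68716756 (+), with 3 exact copies, among them chr5:3236625-3236674 (+): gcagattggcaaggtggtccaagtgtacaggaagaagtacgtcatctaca

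Levels between genes were compared as mean counts per kilobase of transcript. The 6 members with under 25% of windows elsewhere had a median of 390 counts per kb in females and 349 in males. The 28 members between 25% and 75% had medians of 53.2 and 49.6, and the 45 members at 75% or more had 47.4 and 50.6. Median transcript lengths in the same order were 2447.5, 962.5 and 614 bases, so the classes also sorted the members by transcript length. Mitochondrial ribosomal protein genes, which encode the separate ribosome of mitochondria, offered a comparison of like function: 76 of them had a median of 365 counts per kb in females and 330 in males, with a median of 2.71% of windows elsewhere.

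The relation was loose within the members. Rpl18 had 20.2% of its windows elsewhere and yet the lowest level of all, 4.94 counts per kb in females and 5.002 in males. Its transcript used here has 2987 bases, where the median over the members is 780. Both its share of windows and its level per kb depend on that length. Conversely, Rpl22 (68.2% elsewhere) stood at 4522 and 4035 counts per kb, and Rps15 (91.1%) at 3185 and 2622. The transcript used for Rpl22 has 474 bases, while its annotated exons together cover 2911, so its level per kb depends on that choice. Over the 79 members, Spearman's rho between counts per kb and the share of windows elsewhere was -0.04 in females and -0.03 in males, and -0.33 and -0.32 when only exact matches counted. The genes share libraries and are not independent, so these values are descriptions only. Whether reads that matched several places were kept or dropped before counting is not given in the sources used here, and the part of genomic copies in the low counts was not tested.

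**Figure D1:**
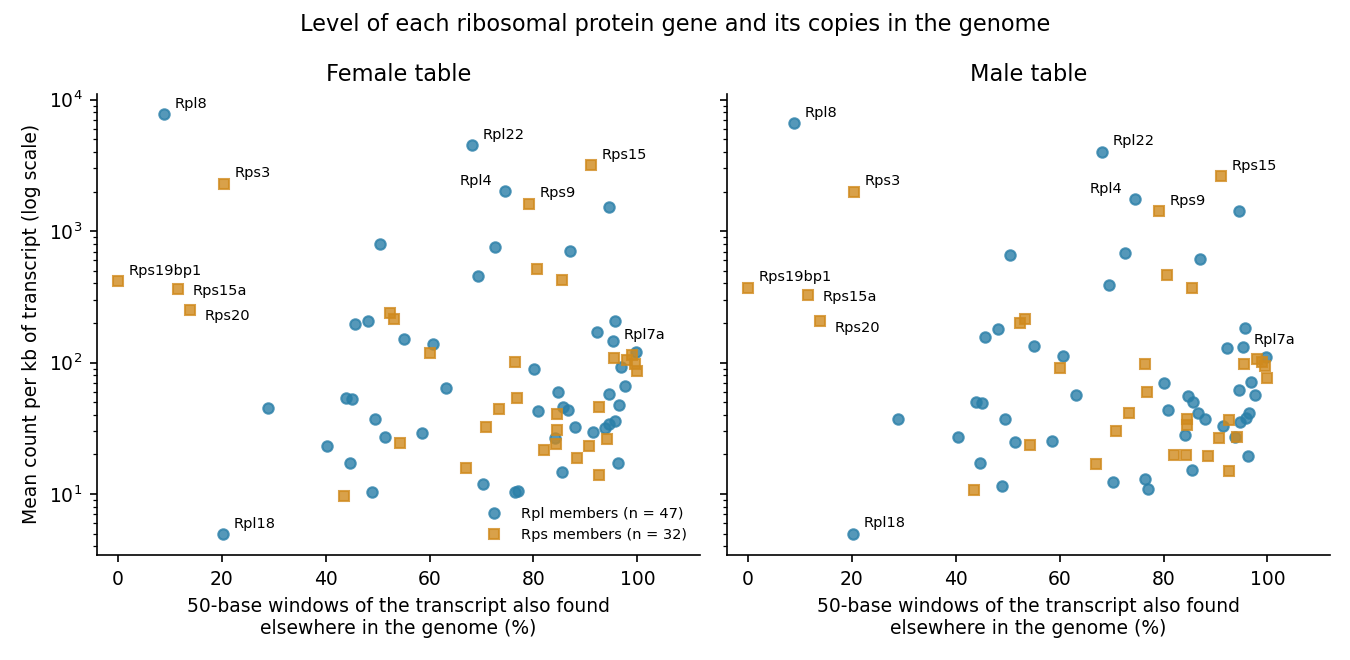
Mean counts per kilobase of transcript (log scale) for the 79 members with an annotated transcript, against the percentage of the transcript's 50-base windows found elsewhere in the mm9 genome with up to 2 mismatches, for females (left) and males (right). Each point is a gene, with circles for Rpl and squares for Rps members. The 6 genes at the left of each panel reach from 4.94 (Rpl18) to 7718 (Rpl8) counts per kb in females, and the 45 genes at 75% or more have a median of 47.4, although Rps15 and Rps9 stand high.

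The order at the top was the same in both tables for the leading 5 members by counts per kb. Rpl8 led with 7718 in females and 6630 in males, followed by Rpl22, Rps15, Rps3 (2296 and 2001) and Rpl4 (2007 and 1760). Rpl18, Rps13 (9.65 and 10.8) and Rpl5 (10.5 and 11.4) were among the lowest. These ranks depend on the transcript used for each gene, such as 474 bases for Rpl22 and 2987 for Rpl18. The exons of Rpl8 cover 862 bases, which gives at most 1724 start positions on both strands, while its lowest library count was 5662 in females and 4625 in males. It was the only member with more counts than start positions in every library. PCR duplicates are stated to have been removed. Keeping 1 read per start and strand would leave at most 1724, so the Rpl8 counts are higher than such a removal allows. Rps15, with at most 1304 start positions, also passed them in every female library (1307 to 1884 counts), though not in every male library (lowest 1011).

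Precision followed the counts. In the air groups, the coefficient of variation of normalised CPM over 6 libraries had a median of 6.06% in females and 4.93% in males for the 15 members with a mean of 300 or more counts, and of 17.03% and 17.5% for the other 65. The standard error of a log2 fold change in females with nicotine had a median of 0.15 over the members and of 0.08 over all genes tested.

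The design asks whether either aerosol changed expression against air within each sex. Both exposed groups of a sex were compared with the same air libraries, so their results are not independent. A gene was called at an adjusted p under 0.01 (edgeR's quasi-likelihood test, Benjamini-Hochberg over all genes tested), and all values in what follows are TMM-normalised CPM or log2 differences of it.

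In males, no nicotine against air gave the most calls, with 3 members higher and 0 lower. Of all 15293 genes tested in males, 13.6% were called in this comparison, 6.15% higher and 7.47% lower, against 3 of 80 members. At an unadjusted p under 0.05, 8 members were higher and 2 lower, 10 in all, where 36% of all genes were under that limit (19.1% higher and 16.9% lower). The called members were Rps9, Rps3 and Rpl13a, all among the 15 with high counts, and in each the exposed and air libraries did not overlap. Here and below, lack of overlap comes from the same values as the tests and is no separate support. Its share over all genes is not given here. The increases were small, between 1.102-fold for Rps3 and 1.15-fold for Rps9.

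Rps9 (ENSMUSG00000006333.8, chr7:3655595-3658503), a small-subunit protein near the entry of messenger RNA, stood at 45.3 to 50.3 CPM in male air libraries with a median of 47.0. The no nicotine libraries held 51.8, 54.2, 54.9, 56.2 and 56.5 CPM. All 5 lay above the highest air library, and the log2 fold change was 0.20 (SE 0.037, edgeR adjusted p 0.000683). Of its windows 79.2% occur elsewhere, chiefly at 1 place. In males with nicotine, Rps9 ranged from 48.1 to 51.8 CPM around a median of 50.3, overlapping the air group (log2 fold change 0.07, edgeR adjusted p 0.347).

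Rps3 (chr7:106626406-106632248) ranged from 159 to 179.9 CPM in male air libraries, with a median of 177, and the no nicotine libraries stood at 180.4, 192, 193, 195 and 199 CPM. The lowest exposed library barely cleared the highest air library, and the log2 fold change was 0.14 (SE 0.0355, edgeR adjusted p 0.00738). Males with nicotine kept to 169.6 to 179 CPM, within the air range (0.01, edgeR adjusted p 0.951).

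Rpl13a (chr7:52380928-52391787), known outside the ribosome as part of a complex that silences inflammatory messengers, ranged from 29.5 to 32.9 CPM in male air libraries, with a median of 31.2. The no nicotine libraries held 33.2, 33.6, 35.3, 36.05 and 37.5 CPM, and the log2 fold change was 0.17 (SE 0.044, edgeR adjusted p 0.00897). These libraries also stood above all air libraries, and 72.6% of the Rpl13a windows occur elsewhere, with 4 places. Rps3 and Rpl13a were close to the threshold: under DESeq2 size factors, without the limit on low counts, with only the 2 groups in the fit or by limma-voom, Rps9 alone of the 80 was called, and with the log2 library total as covariate Rpl13a alone of the 3 lost its call (edgeR adjusted p 0.0118) while Rpl23 gained one (0.25, edgeR adjusted p 0.00739). When single libraries of these groups were left out, Rps9 kept its call in 11 of 11 fits, Rps3 only without air replicate 33 or no nicotine replicate 2, and Rpl13a only without air replicate 31 or no nicotine replicate 4.

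Members just short of the call in males without nicotine included Rpl23, whose product binds Mdm2 when not in ribosomes and whose groups also did not overlap (0.24, edgeR adjusted p 0.0151), and Rps21 (0.24, edgeR adjusted p 0.0189). The 3 lower members with the smallest p were Rpl5, which joins the 5S ribosomal RNA (-0.53, SE 0.180, edgeR adjusted p 0.0396), Rpl22 (-0.10, edgeR adjusted p 0.121) and Rpl32 (-0.34, edgeR adjusted p 0.297). None of these was called in the main fit. Rpl23 was called with the log2 library total as covariate (edgeR adjusted p 0.00739) and without air replicate 30 (edgeR adjusted p 0.00737). Rps21 was called without no nicotine replicate 4 (edgeR adjusted p 0.00745). Rpl5 stood at 0.960 to 1.51 CPM in air, a median of 28 counts, and at 0.883, 0.868, 0.725, 0.759 and 1.14 CPM without nicotine, so that the groups overlapped.

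In females, no nicotine against air gave 0 called members, against 12.1% of all 15158 genes tested (5.03% higher and 7.03% lower). At an unadjusted p under 0.05, 9 members were higher and 0 lower, where 36.4% of all genes were under that limit, 17.7% higher and 18.7% lower. DESeq2 and limma-voom also called 0 members. The 3 with the smallest p were Rps27l, a relative of Rps27 known as a p53 target (0.27, SE 0.080, edgeR adjusted p 0.0205), Rps26, a gene mutated in Diamond-Blackfan anaemia (0.45, SE 0.148, edgeR adjusted p 0.0333), and Rps15a (0.21, SE 0.071, edgeR adjusted p 0.0410).

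The lower members with the smallest p were Rps19, another gene of that anaemia (-0.21, edgeR adjusted p 0.189), Rpl12, at the base of the stalk (-0.28, edgeR adjusted p 0.208), and Rpl28 (-0.25, edgeR adjusted p 0.241), and none of these was called.

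Rps26 stood at 1.07 to 2.14 CPM in female air libraries with a median of 1.73, and at 2.20, 2.80, 2.03, 2.32 and 2.35 CPM without nicotine. A single exposed library fell within the air range. Rps27l ranged from 4.38 to 5.36 CPM in air and read 5.54, 5.84, 5.81, 6.04 and 4.79 CPM without nicotine, where again 1 library fell within the air range.

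The 3 genes called in males had the same sign in females without nicotine. The log2 fold change was 0.14 for Rps9 (SE 0.060, edgeR adjusted p 0.0911), 0.10 for Rps3 (SE 0.048, edgeR adjusted p 0.122) and 0.09 for Rpl13a (SE 0.060, edgeR adjusted p 0.314). Rps9 read 45.6 to 55.3 CPM in female air libraries and 52.4 to 59.2 without nicotine, so that the groups overlapped. The difference between the tables was tested by an interaction term over 15105 genes, and 0 members and 0% of all genes were called for either aerosol. At an unadjusted p under 0.05 stood 3 members with nicotine and 4 without, where 6.47% and 4.91% of all genes did. Without nicotine, differences for the 3 genes lay between 0.03 and 0.07, so the larger male result was not shown to differ from the female one.

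In females, nicotine against air gave 1 called member, lower, where 4.29% of all genes were called, 1.98% higher and 2.32% lower. It was Rpl28 (ENSMUSG00000030432.6, chr7:4744476-4746164), a protein found in the large subunit of animals but not of yeast, at low counts. The 6 female air libraries held 40 to 51 counts (1.72 to 2.10 CPM, median 1.85). The nicotine libraries held 19, 22, 24, 29 and 33 counts, and their CPM ranged from 0.965 to 1.58, below every air library. The log2 fold change was -0.69 (SE 0.155, edgeR adjusted p 0.00894).

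The Rpl28 call was not stable. It was lost in 10 of 11 fits that left out a library of these groups, being kept without nicotine replicate 1, with the adjusted p between 0.00592 and 0.0289 and the log2 fold change between -0.82 and -0.63. Female libraries without nicotine ranged from 1.08 to 1.90 CPM and overlapped both the nicotine and the air libraries. In males, Rpl28 spread from 1.01 to 2.29 CPM with overlapping groups, and its log2 fold change with nicotine was 0.14 (edgeR adjusted p 0.757). The difference between the tables was 0.82 (SE 0.221, unadjusted p 0.000797, edgeR adjusted p 0.349). Of the Rpl28 windows 84.6% occur elsewhere in the genome, and the part of reads from its copies in these counts was not tested.

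The other members named by rank in females with nicotine did not pass. The higher ones were Rpl14 (0.16, edgeR adjusted p 0.116), Rps27l (0.18, edgeR adjusted p 0.146) and Rps9 (0.13, edgeR adjusted p 0.155). The lower ones after Rpl28 were Rpsa (-0.28, edgeR adjusted p 0.147) and Rps14 (-0.23, edgeR adjusted p 0.224). At an unadjusted p under 0.05, 4 members were higher and 2 lower, where 28.1% of all genes were under that limit (13% higher and 15.1% lower).

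In males, nicotine against air gave 0 called members, with 0% of all 15293 genes called, and DESeq2 and limma-voom called 0 members too. At an unadjusted p under 0.05, 4 members were higher and 1 lower, against 7.02% and 7.38% of all genes, 14.4% in all. Rpl23 had the smallest p (0.25, SE 0.067, edgeR adjusted p 0.0947), followed by Rps21 (0.22, SE 0.070, edgeR adjusted p 0.137) and Rpl27a (0.09, SE 0.040, edgeR adjusted p 0.281). Rps21 ranged from 5.41 to 6.59 CPM in air and from 6.93 to 7.74 CPM with nicotine, with no overlap. Rps10, another gene of Diamond-Blackfan anaemia, had the largest lower estimate (-0.49, SE 0.220, edgeR adjusted p 0.317) at a median of 13 counts with nicotine, and was followed by Rplp2 (-0.25, edgeR adjusted p 0.447) and Rpl22 (-0.07, edgeR adjusted p 0.484).

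Without the library that went against its label, 0 members and 0 of all 15229 genes then tested were called in males with nicotine against air, and at an unadjusted p under 0.05 stood 3 higher and 1 lower member. The log2 fold change was then 0.24 for Rpl23 (edgeR adjusted p 0.169), 0.23 for Rps21 (0.199 likewise), 0.08 for Rpl27a, -0.53 for Rps10, 0.07 for Rps9, 0.01 for Rps3 and 0.17 for Rpl28. No member moved by more than 0.11, but 9 of the 80 changed sign, among them Rps6 (0.04 with the library and -0.02 without). The difference between the tables with nicotine was 0.85 for Rpl28 without it (edgeR adjusted p 0.496) and 0.37 for Rpsa (edgeR adjusted p 0.823), with 0 members called.

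The aerosols with and without nicotine were also compared with each other, within each sex. In females 0 members were called, with 0% of all genes, by edgeR, DESeq2 and limma-voom, and 1 member was higher and 6 lower at an unadjusted p under 0.05, where 3.68% and 4.68% of all genes were (8.36% in all). The smallest p belonged to Rps19 (0.28), Rpl22 (0.09) and Rpl31 (0.16) among the higher members and to Rps14 (-0.35), Rpl28 (-0.44) and Rpl5 (-0.55) among the lower, with edgeR adjusted p from 0.574 to 0.694. In males edgeR called 0 members, with 0.248% of all genes called (0.222% higher and 0.0262% lower), and 0 were higher and 4 lower at an unadjusted p under 0.05, against 10.2% and 9.85% of all genes (20.1% in all). Rps3 had the smallest p (-0.13, SE 0.036, edgeR adjusted p 0.0451) and its 6 nicotine libraries all lay below its 5 no nicotine libraries. The other lower members by p were Rps9 (-0.13, edgeR adjusted p 0.0611) and Rpl8 (-0.08, edgeR adjusted p 0.206), and the higher ones Rpl5 (0.37), Rpl28 (0.31) and Rps25 (0.36), with edgeR adjusted p from 0.268 to 0.429. DESeq2 called Rps3 alone (-0.13, DESeq2 adjusted p 0.00761), and limma-voom called 0 members. Without the library that went against its label, edgeR called 0 members and 5 of 15229 genes, 0 members were higher and 2 lower at an unadjusted p under 0.05, and Rps3 stood at -0.13 (edgeR adjusted p 0.0802).

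**Figure D2:**
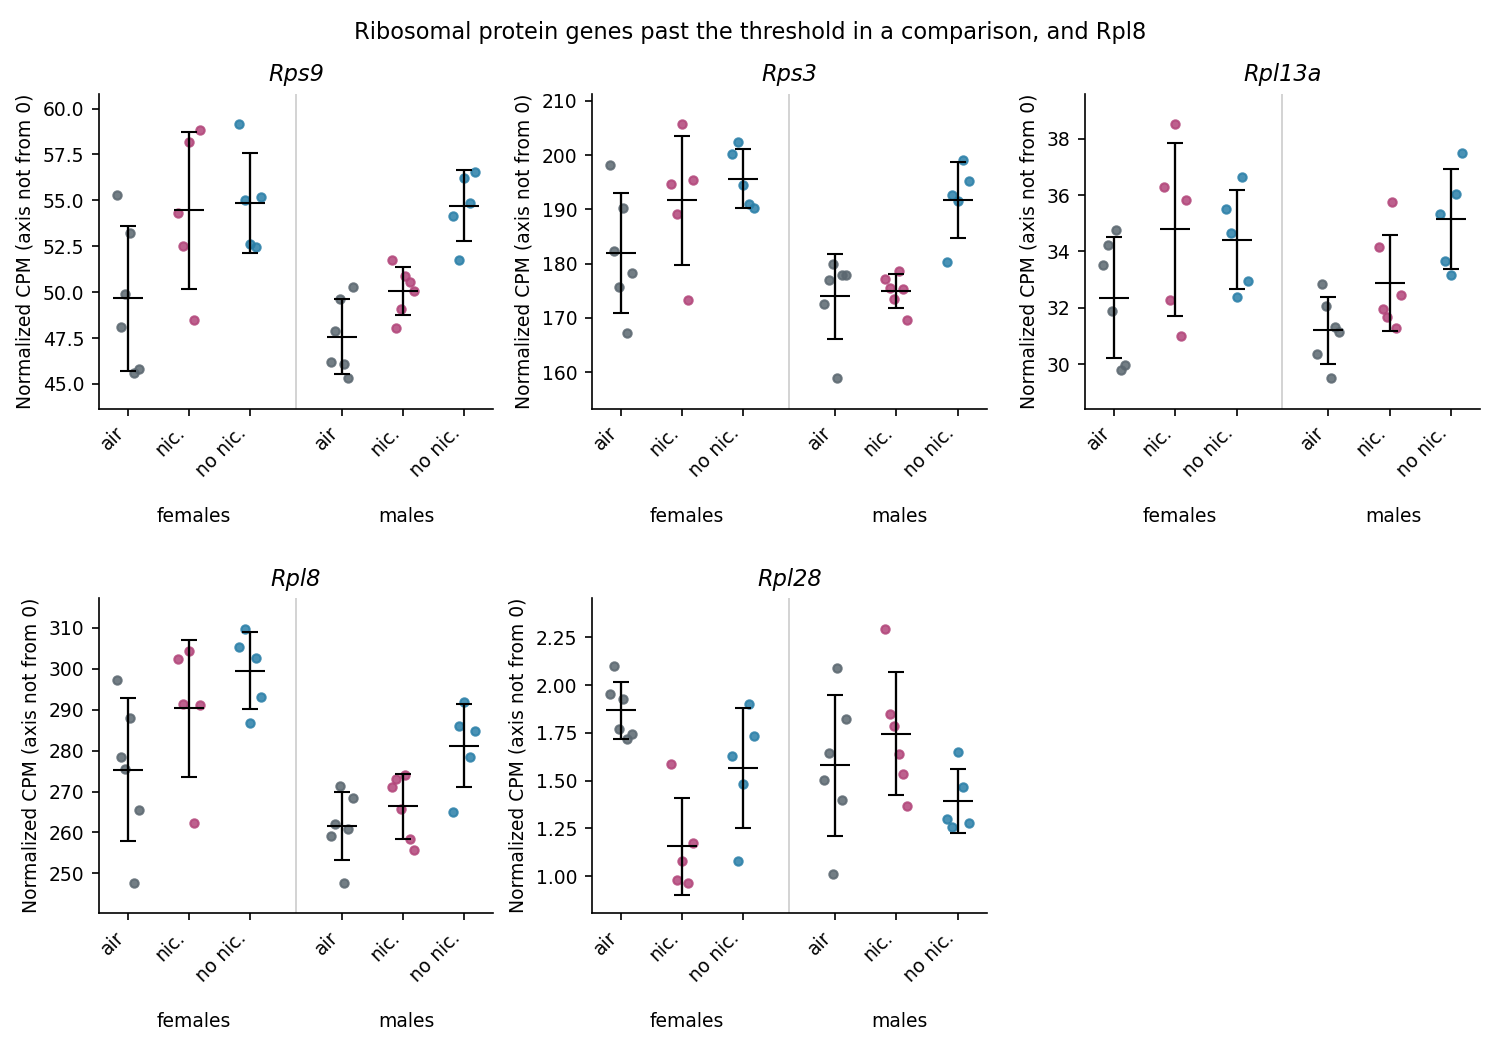
TMM-normalised CPM (vertical axes, which do not start at 0) of Rps9, Rps3, Rpl13a, Rpl8 and Rpl28 in every library of the 6 groups. Points are libraries, the long horizontal line is the group mean and the bars are 1 SD. In males, the no nicotine points of Rps9, Rps3 and Rpl13a all lie above the air points; for Rpl28 the female nicotine points lie below the female air points, from 0.965 to 1.58 CPM.

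Members of the ribosomal stalk, the arm that recruits translation factors, were described whatever their result. Rplp0 had log2 fold changes against air of 0.26 and 0.10 in females (nicotine, then no nicotine) and of 0.13 and 0.08 in males. Rplp1 had 0.04 and 0.06, then 0.03 and 0.10, and Rplp2 0.08 and 0.11, then -0.25 and -0.15. None was called, and Rplp1 averaged 755 counts per library in females against 58.5 for Rplp0 and 51.9 for Rplp2. Rpsa, a small-subunit protein also known as a laminin receptor, had -0.28 and -0.05 in females but 0.15 and 0.18 in males, and the difference between the tables with nicotine was 0.42 (SE 0.189, edgeR adjusted p 0.756). Rps6, the substrate of S6 kinase, lay between -0.06 and 0.10 in all 4 comparisons with air, at 2.93 to 4.99 CPM over the libraries.

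Of the listed relatives of ribosomal proteins, 5 could be tested, namely Rpl22l1, Rpl36al, Rps27l, Rpl7l1 and Rps19bp1, and 0 were called in any comparison. Rpl7l1 came nearest in males without nicotine, with 22.2 to 24.7 CPM against 19.5 to 22.5 in air (0.16, SE 0.049, edgeR adjusted p 0.0231).

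The members as a set stood slightly above air in each exposed group. Their median log2 fold change in females was 0.06 with nicotine and 0.10 without, and in males 0.04 and 0.08, while the median over all genes tested lay between 0.00 and 0.02. Fold changes were above 0 for 49, 55, 50 and 60 of the 80 members in the same order, that is 61.3%, 68.8%, 62.5% and 75%, against 51%, 52.1%, 52.8% and 53.9% of all genes. For nicotine against no nicotine the medians were -0.03 in females and -0.05 in males, with 30 and 26 members above 0, against 49.9% and 48.4% of all genes. The 15 members with 300 or more counts had medians of 0.06, 0.09, 0.03 and 0.10 against air and 14, 13, 11 and 13 of them were above 0.

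**Figure D3:**
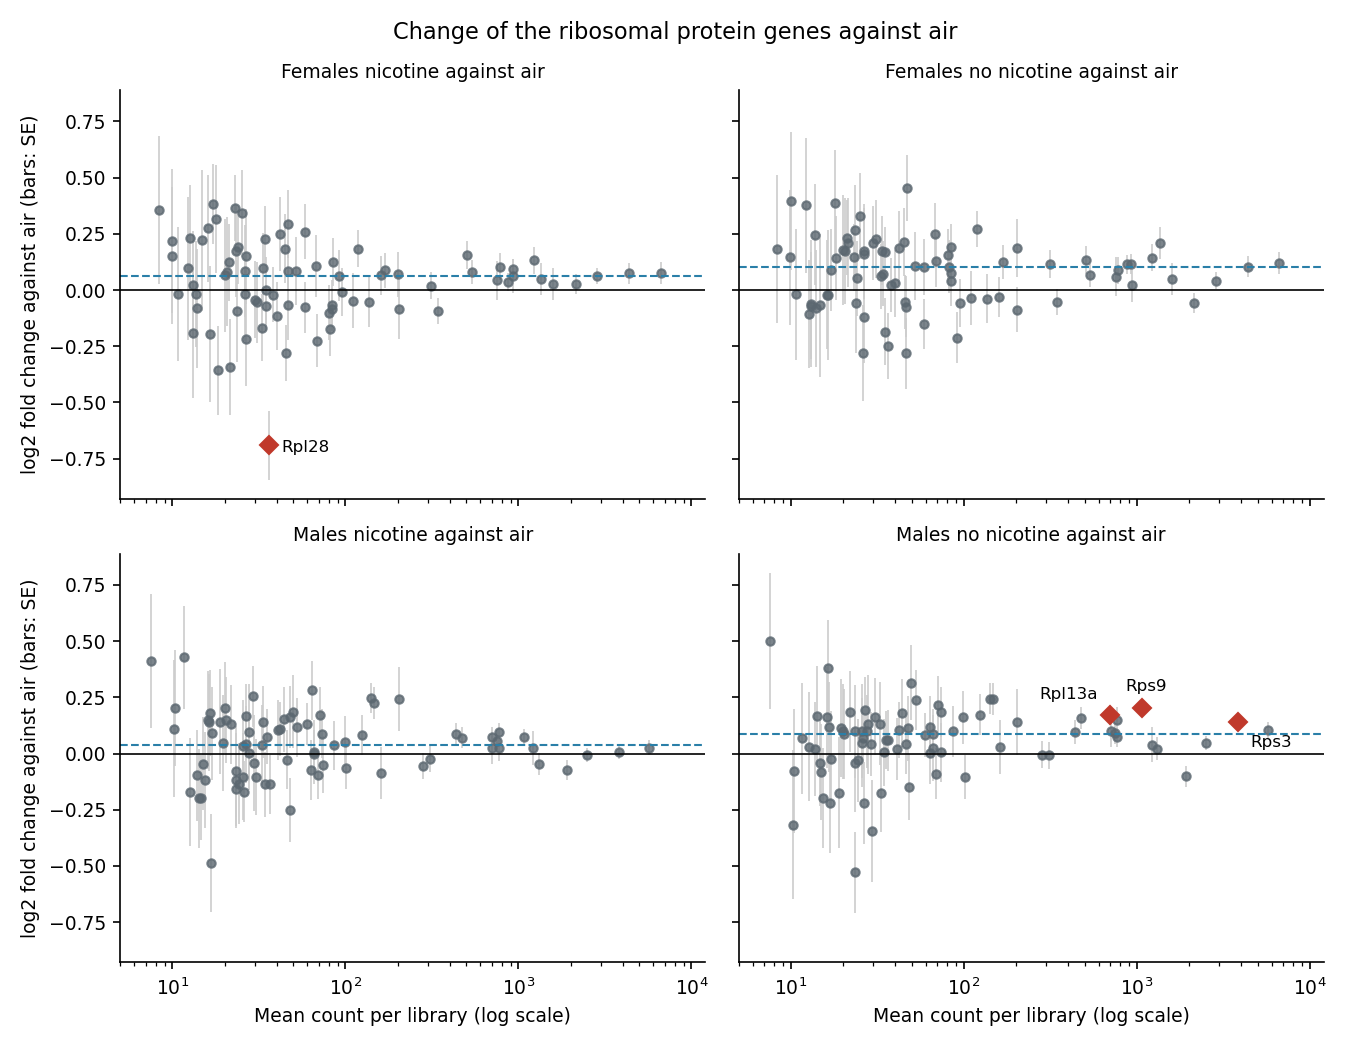
log2 fold change against air of each of the 80 members (vertical axis; bars are 1 SE) by its mean count per library (log scale), for nicotine (left) and no nicotine (right) in females (top) and males (bottom). Red diamonds mark members with an adjusted p under 0.01, namely Rpl28 in females with nicotine and Rps9, Rps3 and Rpl13a in males without, and the dashed line is the median of the members, from 0.04 to 0.10. The scatter narrows towards high counts.

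By subunit, the medians without nicotine were 0.08 for 60S and 0.14 for 40S members in females, and 0.08 and 0.09 in males. With nicotine they were 0.07 and 0.04 in females and 0.03 and 0.05 in males. Called members were 2 small-subunit genes and 1 large-subunit gene in males without nicotine. No comparison between the subunits was tested.

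The summed level of all members gave the same picture per library. It ran from 1136 to 1305 CPM in female air libraries with a median of 1226. The 5 female nicotine libraries summed to 1306, 1265, 1344, 1179 and 1309 CPM, and those without nicotine to 1335, 1326, 1276, 1300.2 and 1269.6. Apart from the nicotine library at 1179, the exposed libraries lay above the air median, but the groups overlapped.

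In males the sum ran from 1119 to 1218 CPM in air (median 1189) and from 1157 to 1222 CPM with nicotine (median 1201, or 1206 over the same range without the library that went against its label). Without nicotine it was 1209, 1244, 1255, 1253 and 1291 CPM, and a single one of these 5 libraries fell within the air range. Ratios of the group means to air were 1.04 with nicotine and 1.06 without in females, and 1.01 and 1.06 in males. Without Rpl8 and Rps3 they were 1.04, 1.05, 1.01 and 1.04. The 60S sum without nicotine reached 728 to 782 CPM in males, against 689 to 748 in air. The 40S sum reached 481 to 509 CPM in the same males, against 429 to 470.5, where the groups did not overlap. In females the 40S sum overlapped, at 440 to 512 CPM in air and 499.6 to 523 without nicotine. It also overlapped air in males with nicotine (444 to 473).

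**Figure D4:**
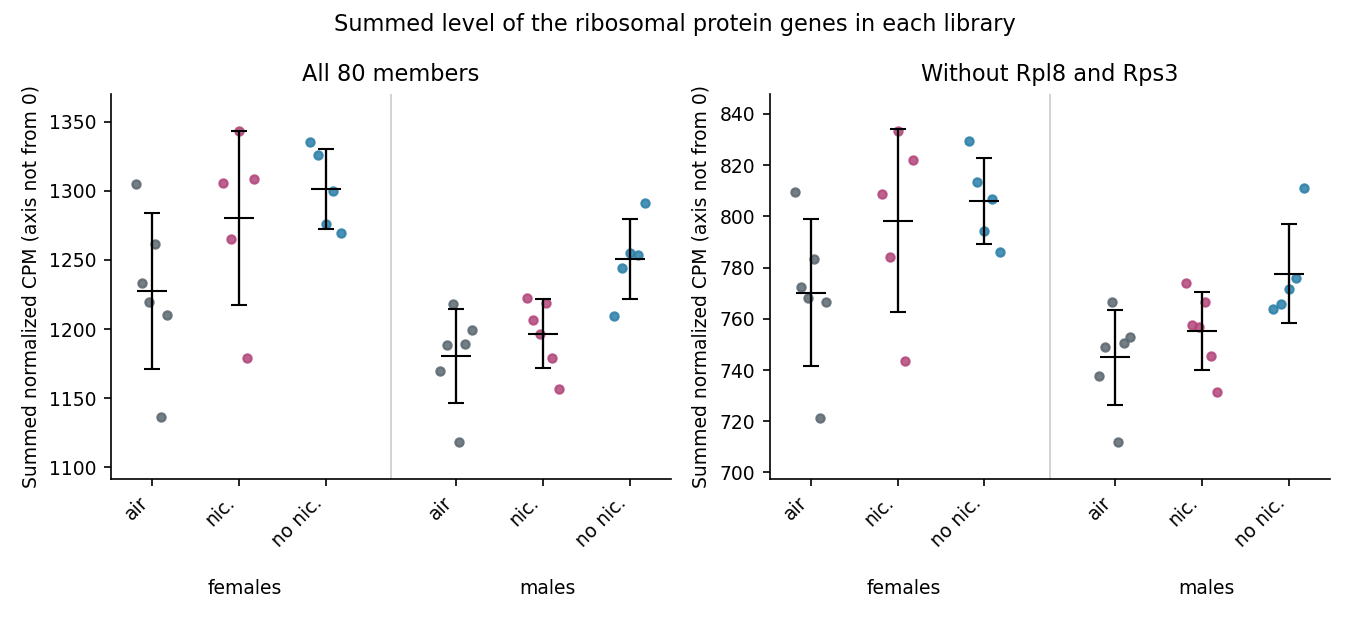
Summed TMM-normalised CPM of all 80 members (left) and of the members without Rpl8 and Rps3 (right) in every library, by group; vertical axes do not start at 0. Points are libraries, the long line is the group mean and the bars are 1 SD. The female air libraries spread from 1136 to 1305 CPM, and 4 of the 5 male no nicotine libraries lie above the highest male air library at 1218 CPM.

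Short transcripts in general showed a like shift. Other genes with a transcript under 1000 bases, 1000 of them in females and 1026 in males, had median log2 fold changes of 0.06 with nicotine and 0.06 without in females, and of 0.04 and 0.08 in males. Genes with a transcript of 3000 bases or more had -0.01, -0.02, -0.01 and -0.01. The part of transcript length in the members' medians was not tested.

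Mitochondrial ribosomal protein genes had medians of 0.03 with nicotine and 0.07 without in females, and of 0.04 and 0.07 in males. Of the 76, 1 was called in females without nicotine (Mrpl10, 0.16, higher), where 12.1% of all genes were called. In males without nicotine 3 were called, all higher (Mrpl4, 0.17, Mrpl54, 0.19, and Mrpl24, 0.22), where 13.6% of all genes were called. The sum of the 76 lay at 1552 to 1611 CPM in female air libraries and at 1617 to 1656 without nicotine. In males it lay at 1502 to 1560 in air and at 1567 to 1644 without nicotine, so that these groups did not overlap in either sex.

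Other genes of translation were taken from lists of elongation and initiation factors, ribosome biogenesis, and mTORC1 with its targets. Of 16 translation factors, 0 were called in females, and in males without nicotine Eef1b2 was higher (0.15, edgeR adjusted p 0.00192) and Eef1a2, the neuronal and muscle elongation factor, lower (-0.15, edgeR adjusted p 0.00482). Of 43 biogenesis genes, Bop1 was lower in females with nicotine (-0.19, edgeR adjusted p 0.00711) and without (-0.16, edgeR adjusted p 0.00922), Rrp12 was lower in females without (-0.24, edgeR adjusted p 0.00174), and Sbds, which helps to free the large subunit of Eif6, was higher in males without (0.15, edgeR adjusted p 0.00342). Of 20 mTORC1 regulators and of 2 other ribosome components (Fau and Gnb2l1), 0 were called in any comparison with air. Beside these lists, 4.29% of all genes were called in females with nicotine, 12.1% in females without and 13.6% in males without. At an unadjusted p under 0.05, 6 of the 20 mTORC1 genes were lower and 1 higher in females without nicotine. The counts were 5 and 1 in males without, and 2 and 1 in females with nicotine. Of all genes, 18.7%, 16.9% and 15.1% were lower under that limit in the same order, and 17.7%, 19.1% and 13% higher. The sum of the mTORC1 genes lay at 1102 to 1161 CPM in female air libraries. It lay at 1065 to 1091 with nicotine and at 1045 to 1097 without, so that neither exposed group overlapped air. In males it lay at 1157 to 1188 in air, at 1125 to 1166 with nicotine and at 1110 to 1158 without, and the groups overlapped.

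Markers of cell types were called in the same libraries, where 4.29% of all genes were called in females with nicotine, 12.1% without and 13.6% in males without. Of 16 markers of cortical glutamatergic neurons, 13 were lower in females and 12 in males without nicotine, and 2 in females with nicotine, summing to 9213 to 11538 CPM in female air libraries against 4704 to 8824 without nicotine, and to 8522 to 9695 against 4622 to 7470 in males. Of 10 myelin markers, 10 were higher in females with nicotine, 9 in females without and 10 in males without, with sums of 8826 to 10678 CPM in female air libraries against 11878 to 17964 without nicotine and of 10172 to 12521 against 14858 to 25469 in males. All 8 cholinergic markers were higher in the same 3 comparisons, summing to 66.5 to 160 CPM in female air libraries and to 190 to 445 without nicotine, and to 90.3 to 166 and 215 to 403 in males. Striatal markers (11 tested) had 3, 1 and 3 higher there, and choroid plexus markers 3 higher in males without nicotine. Single libraries stood apart in the choroid plexus sum: no nicotine replicate 7 in males had 960 CPM where the other 4 had 30.7 to 52.5, female air replicate 3 had 331 and replicate 6 had 112.2 where the others had 15.7 to 21.4, and female no nicotine replicate 3 had 290.0 where the others had 22.7 to 45.04. Without male no nicotine replicate 7, Rps9 alone of the members was called. The same held without male air replicate 37, 38 or 39 and without male no nicotine replicate 3 or 5, so this outcome was not particular to replicate 7. Markers of astrocytes, microglia and endothelium had 0 called.

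In males with nicotine against air, where 0% of all genes were called, 0 markers were called either, yet the sums of 2 lists did not overlap. All 8 cholinergic markers were higher at an unadjusted p under 0.05 (median log2 fold change 0.98), with sums of 189 to 251 CPM against 90.3 to 166 in air, and 10 of 16 cortical markers were lower (median -0.30), with sums of 6983 to 7949 against 8522 to 9695. The library that went against its label lay inside both nicotine ranges (232 and 7132). Myelin sums overlapped, at 10393 to 16157 with nicotine.

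The defining genes of cortical neurons were thus present in all libraries, at levels that differed with exposure, and their part in the members' values was not tested. In bulk tissue, fewer cells of a type and less RNA per cell cannot be told apart.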

How the data were processed

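RNA from frontal cortex was made into TruSeq libraries and sequenced as single 50-base reads. The authors deposited raw counts per gene, made with Bowtie (up to 2 mismatches, mm9 transcriptome), SAMtools, stated to drop PCR duplicates, and HTSeq to count; strand setting and the treatment of reads with several matches are not given in the sources used here. The deposited normalised tables hold the same counts divided by a factor and were not used. Of the count columns, 33 were used and 1, which matched no labelled sample, was not.

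Each table (16 female and 17 male libraries, 3 groups in 1 fit) was filtered to genes with summed CPM of at least 5, TMM-normalised and tested with edgeR 4.0.16 (R 4.3.3) by its quasi-likelihood test, with Benjamini-Hochberg adjustment over all genes and calls under 0.01. The alternatives used DESeq2 1.42.0 and limma 3.58.1, other normalisations, filters, samples and covariates. The scripts were tested on simulated data. Windows were matched with Python 3.11.15 to the mm9 genome and GENCODE transcripts, joining matches within 5000 bases into places; sequences are from that genome. Rpl41 had no transcript entry. P-values measure the spread between animals of different litters.

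Members and lists were chosen with earlier results of these data known. Of the genes matched by the symbol rule, 2 are not reported here and stand in no count of members, nor is 1 gene of a list; all stayed in the fits. Members were named if called, if among the 3 smallest p in a direction where fewer than 3 were called, if in the stalk, Rpsa, Rps6 or the relatives, if highest or lowest in level, or if next to the filter limit; from other lists, up to 3 called genes per direction. Outside this rule, the genes with the fewest or most windows elsewhere, and Rpl23 and Rps21 in males without nicotine, were chosen after their values were seen.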

Additional observations from a re-analysis of the deposited data

Results flagged for a closer look

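In 87 tests of the lowest and highest library of a group (Dixon's test at 95%), 3 libraries stood apart from the rest of their group. Chance gives about 1 in 20. These tests covered only part of the named members. For Rpl5, female nicotine replicate 5 had 1.05 CPM and the nearest library 0.721. For Rps3, male air replicate 37 had 159 CPM and the nearest 173 (without this library Rps3 was no longer called in males without nicotine). For Rpl32, male nicotine replicate 15 had 2.45 CPM and the nearest 1.46. Rps19bp1 was not among those flagged, though its male nicotine replicate 17 had 16.7 CPM and the nearest library 14.3.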

How the results depend on the processing

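No member ranked by p and no median reversed under the alternatives run; without the male library that went against its label, 9 of the 80 members changed sign with nicotine against air, each by at most 0.11. For females with nicotine against air the count of called members (1, Rpl28) became 0 under upper quartile normalisation, without the filter, with only the 2 groups fitted, with the log2 library total as covariate (Rpl28 adjusted p 0.0551) and with the replicate number as a block (log2 fold change of Rpl28 -0.67), and ranged from 0 to 1 when single libraries were left out. For females without nicotine that range was 0 to 1, the 1 being Rps15a without no nicotine replicate 1 (0.26, adjusted p 0.00682). For males without nicotine the count was 1 (Rps9) in place of 3 under DESeq2 size factors, without the filter, with only the 2 groups fitted and by limma-voom, Rpl13a also lost its call with the log2 library total as covariate (adjusted p 0.0118), where Rpl23 was called in its place, and the count was 1 to 3 when single libraries were left out: Rps9 kept its call in 11 of 11 such fits, Rps3 and Rpl13a in 2 of 11. For males, nicotine against no nicotine, DESeq2 gave 1 in place of 0. The median over the members kept its sign in each comparison, though for females, nicotine against no nicotine, it ranged from -0.0547 to -0.0009 when single libraries were left out. Without the library that went against its label, the male median with nicotine was 0.0441 (0.0396 with it). Same-numbered female libraries did not deviate together (14 pairs, r -0.27 to 0.27, median 0.01), and 7 of 16 libraries correlated best with a library of their own number, so the block is no pairing by the design; it changed no other call. No paired analysis was possible for males because their groups share no replicate numbers. Depth limits the 65 members under 300 mean counts, whose values in air varied by a median of 17.03% in females.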
